A study of Mus musculus with 12 samples.

Results

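Chenodeoxycholic acid (CDCA) and deoxycholic acid (DCA), bile acids that carry a pair of hydroxyl groups on the steroid ring, were compared with cholic acid (CA), which carries 3, in mouse small-intestinal organoids. CDCA lacks a hydroxyl group that CA has, and DCA lacks a different one. The comparison used the 6 libraries labelled CDCA or DCA against the 3 labelled CA, and the 3 solvent (DMSO) libraries served as the reference level, so that 9 of the 12 libraries of the series belong to the acids. Genes were sought in which CDCA and DCA both differed from CA in the same direction. Of 32587 gene rows, 11952 had at least 1 TPM (a length-scaled share of the library's transcripts) in at least 3 libraries and were tested. In 37 of them both dihydroxy acids differed from CA the same way, 7 higher and 30 lower.

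All 4 groups were organoids, cultured balls of gut epithelium grown from stem cells, labelled as wild type and as duodenum, and kept in a commercial growth medium (IntestiCult) with antibiotics. The acids were given after 2 days of culture at a labelled concentration of 50 mmol/L for CA, CDCA and DCA alike. That is far above the concentrations usual for bile acids in cell culture, so the unit may be a misprint; it is printed as the labels give it and could not be checked from the files. The labelled exposure is 96 hours in the protocol text, while the treatment label of each library says 2 days, and the strain, age and sex of the mice and the solvent's concentration are not stated in the labels. Nothing tells whether a group's 3 libraries stem from different cultures or mice, so p-values measure the spread between these libraries, which may be technical.

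Bile acids reach gut epithelium as digestive detergents and also as signals. Inside enterocytes they bind the farnesoid X receptor FXR (Nr1h4), which induces the bile acid carrier Fabp6, the exporter Slc51a/Slc51b and the hormone Fgf15, and some of them bind the vitamin D receptor (Vdr), whose best known target is Cyp24a1. Goblet cells, which secrete the mucus layer, and enteroendocrine cells, which release gut hormones, are scattered secretory cells of the same epithelium.

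The deposited rows summed to between 889156 and 936841 TPM per library, and 11464 to 11711 rows reached 1 TPM. TPM keeps no read number, so the depth behind a value is unknown, and an exact 0 can be a failed estimate. Epithelial identity was plain, with Epcam at 694 to 828 TPM, and the duodenal regulator Pdx1 lay at 8.16 to 11.2 TPM, while Slc10a2, the ileal bile acid importer, stayed under 1 TPM. Summed markers of mesenchymal cells (11 genes, 3.90 to 7.62 TPM), immune cells (10 genes, 4.84 to 6.81 TPM) and endothelial, glial and neuronal cells (11 genes, 2.11 to 4.14 TPM) were low in every library, and Dcn, Lum, Cd52 and Cdh5 were listed at 0 in all 12. A pair of libraries stood apart from their groups. On a line over all tested genes from the mean of DMSO (0) to the mean of DCA (1), CDCA replicate 3 lay at 0.52 against 0.10 and 0.17 for its partners, and DMSO replicate 1 lay at 0.33 against 0.02 and -0.03. CA lay at 0.31 to 0.46 and DCA at 0.86 to 1, and CDCA replicate 3 lay past all 3 CA libraries. The DMSO and DCA means set the ends of the line, with each library left out of its own group's mean.

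Averaged over both dihydroxy acids, 21 genes differed from CA, 4 higher (0.0335% of the genes tested) and 17 lower (0.142%), which is 0.176% of the genes tested together (limma, Benjamini-Hochberg adjusted p under 0.05, here "called"). At an unadjusted p under 0.05 the number was 1177, and the median log2 difference of all genes tested was -0.03. The 3 pairs of acids were adjusted together. CDCA differed from CA in 148 genes (1.24%, 31 higher, 0.259%, and 117 lower, 0.979%), DCA differed from CA in 1643 (13.7%, 637 higher, 5.33%, and 1006 lower, 8.42%), and DCA differed from CDCA in 2673 (22.4%, 1285 higher and 1388 lower). More genes were called between the dihydroxy acids than between either of them and CA. The share of higher calls moved with the scaling: median-ratio scaling gave 89 higher and 138 lower in CDCA, 1157 and 1158 in DCA, and 1826 and 1639 between them, and removal of mitochondrial and rRNA rows gave 80 and 146, 640 and 1582, and 1215 and 2181. The 21 average calls became 13 without CA replicate 1, 8 without CA replicate 3, 32 without CDCA replicate 1 and 43 without DMSO replicate 3.

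The 37 shared genes are 0.31% of the genes tested (0.0586% for the 7 higher and 0.251% for the 30 lower), 25% of the CDCA calls and 2.25% of the DCA calls against CA. Both comparisons use the same 3 CA libraries. In all 37 the 3 CA libraries lay outside the range of the 6 dihydroxy libraries, against 2.54% of all genes tested (0.753% with CA below and 1.79% with CA above). The 37 were chosen on these same values, so the lack of overlap is largely built in and is no further support. In 23 further genes (0.192%) both acids were called with opposite signs. The count of 37 leans on adjusting the 3 pairs together, in which the many DCA calls ease the threshold for CDCA. With each pair adjusted by itself 4 genes were left (Cyp24a1, Gcg, Lgals2 and Zg16), and with the larger of both p-values adjusted over all genes 3 were left. Without CDCA replicate 3 and DMSO replicate 1 the count was 56, and 34 of the 37 were kept. It was 19 without CA replicate 1 or CA replicate 3, 21 without CDCA replicate 2, and 18, 17 and 23 without DCA replicates 1, 2 and 3. Cyp24a1, Gcg, Lgals2, Zg16, Agr2, Fcgbp, Gip, Klk1, Muc2, Rep15 and Sst, 11 of the 37, kept both calls whichever of the 12 libraries was left out. No gene of the 37 changed direction in either pair, which the lack of overlap fixes in advance when a library is left out.

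**Figure D1:**
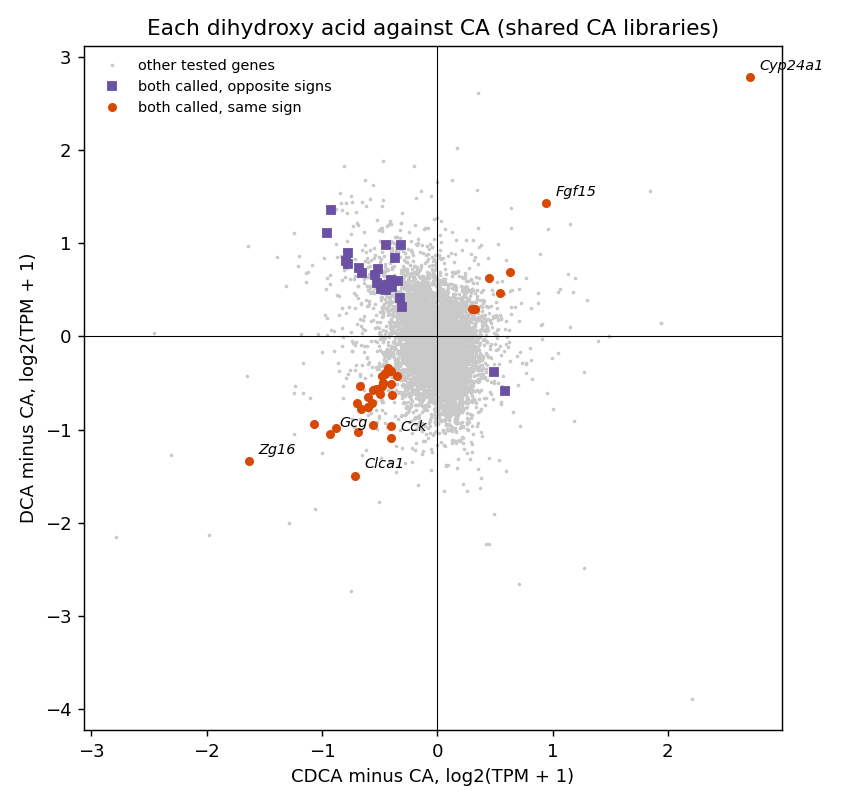
Difference of each tested gene from CA in log2(TPM + 1), with CDCA on the horizontal and DCA on the vertical axis; both axes share the 3 CA libraries, so the cloud's tilt has no test. Orange circles mark the 37 genes called in both with the same sign, with Cyp24a1 far at the upper right and Zg16, Gcg and Clca1 at the lower left, and purple squares mark the 23 genes called with opposite signs.

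Cyp24a1, the enzyme that inactivates vitamin D hormone, had the largest average difference of the shared genes. It was listed at 0 in the 3 CA libraries, at 5.59, 5.05 and 6.08 TPM in CDCA, at 5.83, 5.27 and 6.60 TPM in DCA, and at 0, 0 and 0.668 TPM in DMSO. Every CDCA and DCA library was above every CA and DMSO library. It is also the 1 gene of the 37 that reached the level needed for testing only through the libraries in which it is high (1 TPM in 0 of the 6 CA and DMSO libraries and in all 6 dihydroxy libraries), so a difference was built into its being tested. With no filter on low values, where every gene listed above 0 in any library is tested, its average adjusted p was 7.84e-05. On the log2(TPM + 1) scale, which understates changes of low genes, CDCA was 2.71 and DCA 2.78 above CA (adjusted p = 4.49e-05 for each), and the average was 2.75 (95% interval 2.40 to 3.10, adjusted p = 4.61e-06). No fold is given, since CA is listed at 0. DCA and CDCA differed by 0.07 with an interval of -0.33 to 0.47.

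Of 9 vitamin D receptor target genes listed, 6 were tested, and Cyp24a1 was the 1 called in both pairs. In CDCA 1 was called higher (0.259% of all genes tested), and in DCA 5 (5.33%). S100g, the calcium carrier calbindin, was 2.02 above CA in DCA (adjusted p = 0.00436) and 0.17 in CDCA (adjusted p = 0.805). Atp2b1, the calcium pump, Slc30a10, a manganese exporter, and Cyp3a11 were likewise called in DCA alone, and the difference between DCA and CDCA was itself called for each of these 4 genes (0.55 to 2.25). The median of the 6 was -0.115 in CDCA and 1.465 in DCA, and 0.48 over both acids. Vdr itself differed from CA by 0.005 on average and was not called in either pair.

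Fgf15, the gut hormone that restrains bile acid synthesis in the liver, was the FXR target shared by both dihydroxy acids. CA stood at 9.61, 7.41 and 11.9 TPM, CDCA at 14.1, 14.1 and 34.7 TPM, DCA at 27.1, 24.7 and 29.9 TPM, and DMSO at 1.88, 1.93 and 1.72 TPM. The groups formed steps without overlap between DMSO, CA and the dihydroxy acids, with CDCA replicate 3 well above its partners. CDCA was 0.94 (interval 0.35 to 1.53, adjusted p = 0.0404) and DCA 1.43 (0.84 to 2.02, adjusted p = 0.00639) above CA, while the average of both, 1.19, missed the threshold (adjusted p = 0.0747). Without CDCA replicate 3 the average was 0.98 and passed (adjusted p = 0.00554), while its adjusted p ran from 0.0511 to 0.362 with each other library left out. The shared call of Fgf15 was lost in 11 of 22 alternatives, among them the fit of the 9 acid libraries and the fits without CA replicates 1 or 2, DCA replicates 1, 2 or 3 and DMSO replicates 1 or 2.

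The other FXR targets did not move together in both acids. Of 10 listed, 7 were tested. In CDCA 1 was called (0.259% of all genes tested) and in DCA 4 (5.33%), all higher than CA, with medians of -0.05 and 1.02. Without CDCA replicate 3 a further 2 were called lower in CDCA. Fabp6, the cytosolic bile acid binding protein, stood at 306, 138 and 276 TPM in CA, at 164, 197 and 755 TPM in CDCA and at 1481, 1653 and 1100 TPM in DCA. The CDCA libraries straddled CA and every DCA library was above both, so that DCA was called against CA (2.61, adjusted p = 0.0155) and against CDCA (2.26, adjusted p = 0.0277), and CDCA was not called against CA (0.36, interval -0.88 to 1.59). Slc51b, a subunit of the basolateral bile acid exporter, followed with 0.13 for CDCA and 1.67 for DCA, and its partner Slc51a with -0.50 and 1.02, of which the DCA value of Slc51b alone was called (adjusted p = 0.0115). Nr0b2, the repressor SHP, and Nr1h4 were called in neither pair, at -0.33 and 0.48 and at -0.33 and 0.37. CDCA replicate 3 was the highest CDCA library for Fgf15, Fabp6, Slc51a, Slc51b, Nr0b2 and Nr1h4.

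The remaining 5 genes higher under both dihydroxy acids were moderate in size. Niban1, a protein induced by cellular stress, rose from 8.54, 8.78 and 8.35 TPM in CA to 14.5, 13.4 and 13.5 TPM in CDCA and 16.2, 13.7 and 13.5 TPM in DCA, with DMSO at 5.25, 3.22 and 2.39 TPM. The 6 dihydroxy libraries were tightly grouped above CA, at 0.63 and 0.69 (adjusted p = 0.0317 and 0.0208). Of the 18 tested integrated stress response genes, Niban1 was the 1 called in both pairs, Ddit3 and Vldlr were called higher in DCA alone, Gdf15 and Slc7a5 lower in DCA alone, and the median over both acids was -0.02. In 4 of the 18, Niban1 among them, every dihydroxy library lay above every CA library (0.753% of all genes tested), and in 0 below. Cps1, the carbamoyl phosphate synthetase of the urea cycle, stood at 253, 264 and 260 TPM in CA, 341, 308 and 310 TPM in CDCA, 324, 318 and 309 TPM in DCA and 211, 195 and 219 TPM in DMSO. Both acids were 0.30 and 0.29 above CA, and their own difference was bounded by -0.15 and 0.13. Rin1, a Ras effector, was 0.45 and 0.63 above CA, Angptl6, a secreted angiopoietin-like protein, 0.54 and 0.47, and Oxnad1, an oxidoreductase, 0.32 and 0.30. Each of these 5 passed in both pairs and missed in the average (adjusted p of 0.0683 to 0.171). With each library left out in turn, Niban1, Angptl6 and Oxnad1 kept both calls in 4 of 12 fits. Rin1 kept them in 5 and Cps1 in 10. Without DCA replicate 1 or DCA replicate 2 the count of shared higher genes was 1.

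Goblet cell genes were the group with the most shared calls. Of 17 listed markers 16 were tested, and all 16 had a negative average difference from CA, with a median of -0.58 beside -0.03 for all genes tested. Called lower were 6 in the average (0.142% of all genes tested), 8 in CDCA (0.979%), 14 in DCA (8.42%) and 8 in both (0.251%), and none was called higher in any of these. Without CDCA replicate 3 these counts were 6, 11, 14 and 9. The list was chosen with results of these data known, so its direction is no independent evidence. Summed over the list, CA held 6436 ± 420 TPM (SD, n = 3), CDCA 4771 ± 494, DCA 4541 ± 227 and DMSO 5452 ± 760. In bulk RNA, fewer cells of a type and less of its RNA per cell cannot be told apart, here or below.

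Zg16, a lectin of the mucus layer, led the group. It stood at 171, 131 and 137 TPM in CA, 37.3, 47.3 and 55.9 TPM in CDCA, 55.9, 57.5 and 57.4 TPM in DCA and 86.9, 91.0 and 51.2 TPM in DMSO. Every CA library was above all others, and the DMSO libraries overlapped the dihydroxy range. CDCA was 1.63 below CA on the log2 scale (-1.63, interval -2.06 to -1.20, adjusted p = 0.00116) and DCA followed at -1.34 (adjusted p = 0.00226), while CA itself was 0.96 above DMSO (adjusted p = 0.00664).

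Muc2, the gel-forming mucin, stood at 50.0, 37.3 and 47.5 TPM in CA, 27.1, 24.3 and 30.3 TPM in CDCA, 29.1, 26.9 and 24.8 TPM in DCA and 34.9, 29.5 and 39.1 TPM in DMSO. Both acids lay at nearly the same level below CA, with -0.70 and -0.71 (adjusted p = 0.00593 and 0.00535), and DCA minus CDCA was -0.02 (-0.30 to 0.27). Fcgbp, which crosslinks mucus, fell from 631, 493 and 501 TPM in CA to 395, 343 and 354 TPM in CDCA and 317, 347 and 322 TPM in DCA, with DMSO at 512, 464 and 513 TPM. Its differences were -0.57 and -0.71 (adjusted p = 0.00342 and 0.0014), and here DMSO sat at the level of CA. Agr2, the disulfide isomerase that mucin folding needs, fell from 276, 246 and 287 TPM to 178, 165 and 206 TPM in CDCA and 191, 169 and 181 TPM in DCA, with DMSO at 250, 226 and 215 TPM. No CDCA or DCA library reached the lowest CA or DMSO library, and the differences were -0.56 and -0.57 (adjusted p = 0.00381 and 0.00342).

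Clca1, a mucus-processing protease, fell further in DCA than in CDCA. It stood at 10.9, 7.67 and 8.37 TPM in CA, 5.81, 5.53 and 3.95 TPM in CDCA, 2.48, 2.34 and 2.74 TPM in DCA and 5.70, 7.72 and 5.55 TPM in DMSO. CDCA libraries lay between CA and DCA without overlap, at -0.71 and -1.49 from CA, and the difference between DCA and CDCA was -0.78 (adjusted p = 0.00901). Klk1, a kallikrein protease from a family of close copies, followed at -0.69 and -1.02, Tff3, the trefoil peptide and the most abundant of these genes at 1487 to 2512 TPM in the acids, at -0.48 and -0.53, and Guca2a, the peptide guanylin, at -0.46 and -0.41. Spdef and Atoh1, regulators of goblet and secretory fate, were called in DCA (-0.96 and -0.53) and not in CDCA (-0.55 with adjusted p = 0.0564 and -0.30 with adjusted p = 0.103). Their difference between DCA and CDCA, -0.41 and -0.23, was itself not called (adjusted p = 0.157 and 0.208). Muc13, a membrane mucin, lay nearest to 0 among the tested markers, at -0.11 on average.

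**Figure D2:**
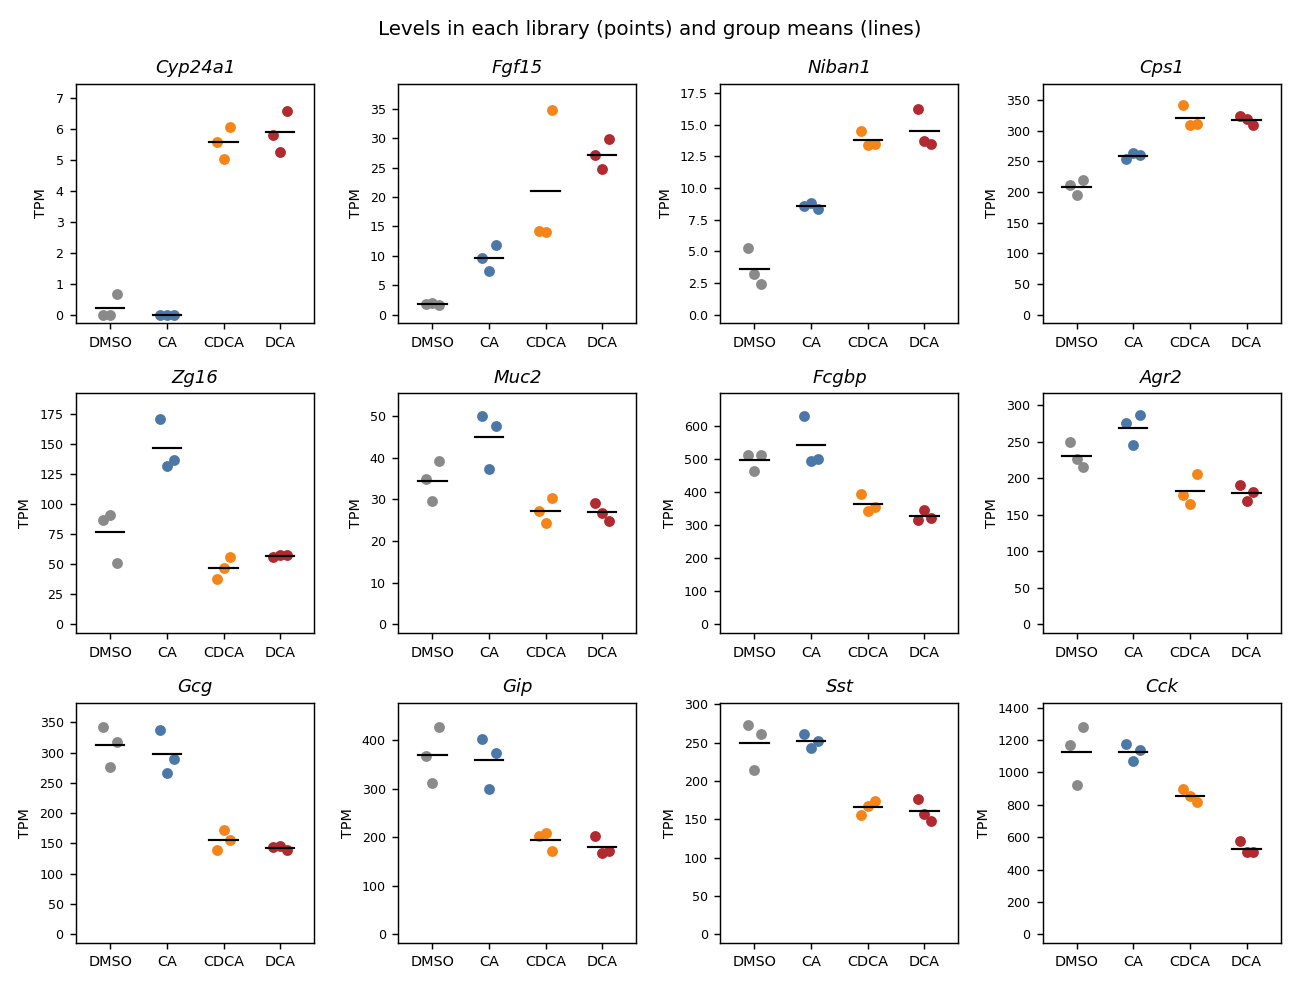
TPM of 12 genes called in both dihydroxy acids, on linear axes from 0, with a point for each of the 3 libraries of a group and a line at the group mean. Cyp24a1, Fgf15, Niban1 and Cps1 are higher in the CDCA and DCA points than in CA, and in the other 8 panels every CA point is above every CDCA and DCA point; Cck alone of the 12 shows DCA clearly below CDCA.

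Hormone genes formed the other shared group. Of 24 enteroendocrine markers listed 22 were tested, and 21 had a negative average difference, with a median of -0.33. In the average 4 were called lower (Gcg, Gip, Sst and Cck; 0.142% of all genes tested) and 1 higher (Pyy; 0.0335%), and the same 4 hormones were called lower in both acids (0.251%). CDCA called 6 lower (0.979%), and DCA called 11 lower (8.42%) and 1 higher (5.33%). Summed levels were 3243 ± 207 TPM in CA (SD, n = 3), 2450 ± 125 in CDCA, 1965 ± 134 in DCA and 3167 ± 363 in DMSO, and the CA and DMSO means differed by less than the SD of DMSO. The 250 bases upstream of the 4 hormone genes and of Muc2 are shown because these genes moved together in both acids; the sequences are RefSeq's, build GRCm38.p6, each 5′ to 3′ on the gene's strand and ending at the base before the transcript start, with capitals marking a cAMP response element, TGACGTCA, or the core of a TATA box on either strand.
Gcg, chr2:62483654-62483903, minus strand: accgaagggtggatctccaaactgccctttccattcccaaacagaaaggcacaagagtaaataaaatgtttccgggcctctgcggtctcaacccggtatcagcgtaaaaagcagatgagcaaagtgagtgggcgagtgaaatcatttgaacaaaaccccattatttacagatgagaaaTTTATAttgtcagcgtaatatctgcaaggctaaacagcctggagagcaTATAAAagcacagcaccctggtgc
Gip, chr11:96024295-96024544, plus strand: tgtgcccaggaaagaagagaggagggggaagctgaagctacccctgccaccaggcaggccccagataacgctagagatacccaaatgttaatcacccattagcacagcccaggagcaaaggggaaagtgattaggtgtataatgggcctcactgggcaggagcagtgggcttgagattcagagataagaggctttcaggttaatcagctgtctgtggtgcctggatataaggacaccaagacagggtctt
Sst, chr16:23890845-23891094, minus strand: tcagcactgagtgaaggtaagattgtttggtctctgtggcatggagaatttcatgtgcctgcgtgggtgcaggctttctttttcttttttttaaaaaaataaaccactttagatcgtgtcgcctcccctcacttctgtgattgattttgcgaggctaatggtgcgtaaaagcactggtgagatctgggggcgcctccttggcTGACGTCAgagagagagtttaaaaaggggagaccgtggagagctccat
Cck, chr9:121495695-121495944, minus strand: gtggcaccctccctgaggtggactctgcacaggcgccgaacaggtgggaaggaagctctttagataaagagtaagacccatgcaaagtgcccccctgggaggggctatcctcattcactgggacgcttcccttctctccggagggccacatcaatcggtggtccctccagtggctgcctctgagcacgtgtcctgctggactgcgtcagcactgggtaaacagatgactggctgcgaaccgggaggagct
Muc2, chr7:141690090-141690339, plus strand: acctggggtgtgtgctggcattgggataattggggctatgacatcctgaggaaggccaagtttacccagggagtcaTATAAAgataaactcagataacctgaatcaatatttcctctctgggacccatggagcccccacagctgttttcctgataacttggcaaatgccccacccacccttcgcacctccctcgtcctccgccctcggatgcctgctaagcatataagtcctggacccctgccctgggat

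TGACGTCA lay 48 bases upstream of the Sst start and was found in 1 of the 24 shared genes with an upstream sequence in the table, against 1.77% of all 27025 genes there, a gene with several windows counting if any of them matched. TATAAA, the core of a TATA box, was found in 2 of the 24 (Gcg, 24 bases upstream and reversed at 72 bases, and Muc2, at 174 bases), against 14.3% of all genes. AGGTCA, the half-site that nuclear receptors read, was found in 3 (Klk1, Niban1 and S100a16), against 15.8%. The half-site followed after 1 base by its reverse complement, an inverted repeat that FXR can bind, and the half-site repeated after 3 bases, a direct repeat that the vitamin D receptor can bind, were found in 0 of the 24, against 0.0074% of all genes for each. Both strands were searched, and the AGGTCA count includes any copy inside a longer motif. Cyp24a1, Fgf15 and Zg16 were among the shared genes without an upstream sequence there, so they were not searched for any of these motifs. These are letter matches only.

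Gcg, which encodes the precursor of glucagon-like peptides, stood at 337, 265 and 289 TPM in CA, 139, 173 and 156 TPM in CDCA, 144, 146 and 139 TPM in DCA and 343, 276 and 317 TPM in DMSO. CA and DMSO overlapped, and all 6 dihydroxy libraries lay below them. The differences from CA were -0.93 in CDCA and -1.05 in DCA (adjusted p = 0.000875 and 0.000438), the average was -0.99 (interval -1.19 to -0.79, adjusted p = 0.000631), and DCA minus CDCA was -0.12 (-0.35 to 0.11). CA minus DMSO was -0.07 (-0.30 to 0.16).

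Gip, the incretin of proximal gut K cells, stood at 403, 300 and 375 TPM in CA, 202, 209 and 172 TPM in CDCA, 203, 169 and 171 TPM in DCA and 369, 312 and 428 TPM in DMSO. The same order of groups as for Gcg was seen, with -0.88 and -0.98 against CA (adjusted p = 0.00249 and 0.00169). Sst, the inhibitory hormone somatostatin, stood at 262, 244 and 252 TPM in CA, 156, 168 and 174 TPM in CDCA, 177, 157 and 148 TPM in DCA and 273, 214 and 261 TPM in DMSO. Its differences were -0.61 and -0.65 (adjusted p = 0.00288 and 0.00212), with DCA minus CDCA at -0.05 (-0.26 to 0.16).

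Cck, the hormone that empties the gallbladder, separated the dihydroxy acids. It stood at 1173, 1070 and 1140 TPM in CA, 895, 857 and 814 TPM in CDCA, 573, 507 and 508 TPM in DCA and 1167, 924 and 1282 TPM in DMSO. CDCA libraries lay below CA and DCA libraries below CDCA, without overlap, at -0.40 and -1.09 from CA (adjusted p = 0.0218 and 0.000241) and -0.69 between DCA and CDCA (adjusted p = 0.00209).

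No other enteroendocrine marker of the list was called in both acids. In 9 of the 22 tested, the 4 shared hormones among them, every dihydroxy library lay below every CA library (1.79% of all genes tested). Ghrl, the hunger hormone ghrelin, was called lower in CDCA (-0.46, adjusted p = 0.00341) and not in DCA (-0.20, adjusted p = 0.12), and DCA minus CDCA was called at 0.26 (adjusted p = 0.0401). Tac1, the tachykinin precursor, Pcsk1, the prohormone convertase, and Chgb, a granin, were called in DCA alone, at -0.79, -0.62 and -0.41, and Scg2 in CDCA alone, at -0.43. Chga, the granin used as the general marker of these cells, differed from CA by -0.08 on average (interval -0.25 to 0.09), and the fate regulator Neurog3 by 0.41 in CDCA and -0.66 in DCA, the latter called. Ucn3, the peptide urocortin 3, lay outside the list and was called lower in both, at -0.60 and -0.76, with CA at 5.91 to 6.32 TPM and the dihydroxy libraries at 2.69 to 4.27 TPM.

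**Figure D3:**
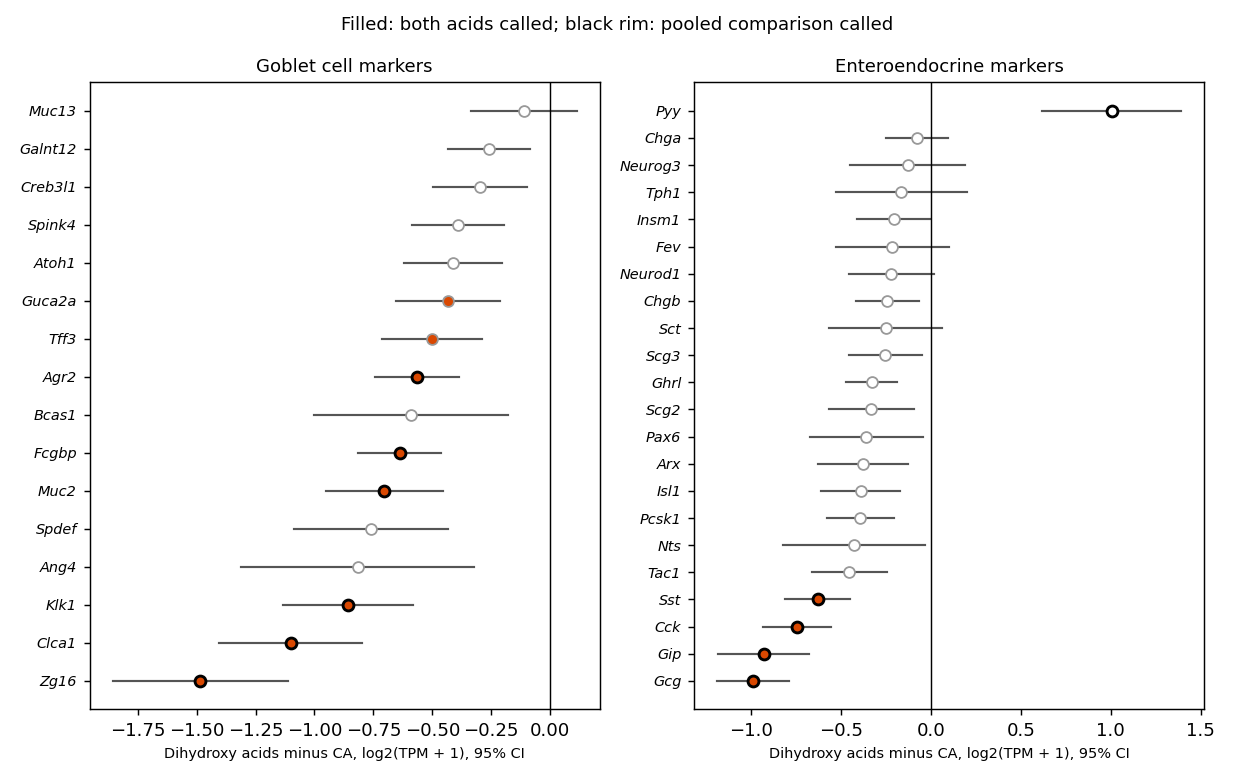
Average difference of the dihydroxy acids from CA in log2(TPM + 1) for the 16 tested goblet cell markers (left) and the 22 tested enteroendocrine markers (right), with 95% intervals. Filled circles are genes called in both CDCA and DCA and black rims are genes called in the average; all goblet points lie below 0, and Pyy is the 1 enteroendocrine point above it.

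Among the other genes lower in both acids, Lgals2, a galectin, had the narrowest spread. It stood at 2179, 2080 and 2055 TPM in CA, 1618, 1524 and 1464 TPM in CDCA, 1597, 1581 and 1633 TPM in DCA and 2035, 1994 and 2155 TPM in DMSO. The 6 dihydroxy libraries lay far below CA and DMSO, which overlapped, at -0.46 and -0.39 from CA (adjusted p = 0.000858 and 0.0014). Of the 10 tested Reg lectins and galectins it was the 1 shared call; Reg1 was -2.46 from CA in CDCA (adjusted p = 0.00619) and 0.03 in DCA, and Lgals4 was called with opposite signs, -0.31 and 0.31.

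Gsn, the actin-severing gelsolin, stood at 25.9, 22.7 and 22.8 TPM in CA, 21.3, 17.4 and 14.9 TPM in CDCA, 11.5, 11.9 and 11.7 TPM in DCA and 22.9, 22.5 and 27.1 TPM in DMSO. CDCA fell between CA and DCA, at -0.41 and -0.96, with DCA minus CDCA at -0.56 (adjusted p = 0.0112). Rep15, a Rab effector, was low throughout, at 2.12 to 2.38 TPM in CA and 0.815 to 1.17 TPM in the dihydroxy libraries, with -0.66 and -0.78. Gcnt3, which branches mucin-type sugars, was -0.48 and -0.42, and S100a16, a calcium-binding protein, -0.35 and -0.42.

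Barrier and membrane genes in the shared set were Cldn23, a claudin (-0.43 and -0.34, the 1 shared call of 14 tested tight junction genes), Emp1, an epithelial membrane protein (-0.41 and -0.36), Pdzk1ip1, a small membrane protein (-0.39 and -0.63), and the orphan receptor Gprc5a (-0.50 and -0.61). Gprc5a stood at 13.5, 13.3 and 12.9 TPM in CA, and CDCA replicate 1 at 11.7 TPM was apart from the other 5 dihydroxy libraries at 7.69 to 9.03 TPM. The scaffold gene Mpp4 (-0.67 and -0.53), the ubiquitin ligase adaptor Kctd17 (-0.53 and -0.56), the membrane tryptase Tpsg1 (-0.60 and -0.76), the methyltransferase Mettl18 (-0.40 and -0.51), Gimd1 (-0.48 and -0.50) and AA986860 (-0.47 and -0.50) completed the set of nuclear protein-coding symbols. Kctd17, Mettl18 and Gsn were the least steady of the 37, since each kept both calls in 3 or fewer of the 12 fits that left out a library.

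The last pair needs care. Rps2-ps10 is named as a pseudogene of the abundant ribosomal protein gene Rps2, so its estimate (-1.07 and -0.94) can hold reads of that gene, and CA replicate 1 at 14.1 TPM was apart from 6.03 and 6.82 TPM in its partners; without that library it was not called in both. ATP6, a mitochondrially encoded subunit of ATP synthase, stood at 7484, 6008 and 7762 TPM in CA, 4581, 5274 and 4504 TPM in CDCA, 3262, 3427 and 4289 TPM in DCA and 5620, 6584 and 7378 TPM in DMSO, giving -0.56 and -0.95 without overlap between CA and the dihydroxy acids. Of 13 mitochondrially encoded genes it was the 1 shared call, and the list's median was 0.02. The mitochondrial share of TPM was 13.9 ± 2.63% in the 6 dihydroxy libraries and 14.0 ± 0.389% in CA (SD, n = 6 and 3), a difference of -0.10 percentage points (exact two-sided permutation test, p = 0.976; smallest p possible with 84 splits, 0.0119). That average covers 15.9% in CDCA and 11.8% in DCA, with DMSO at 17.2%.

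**Figure D4:**
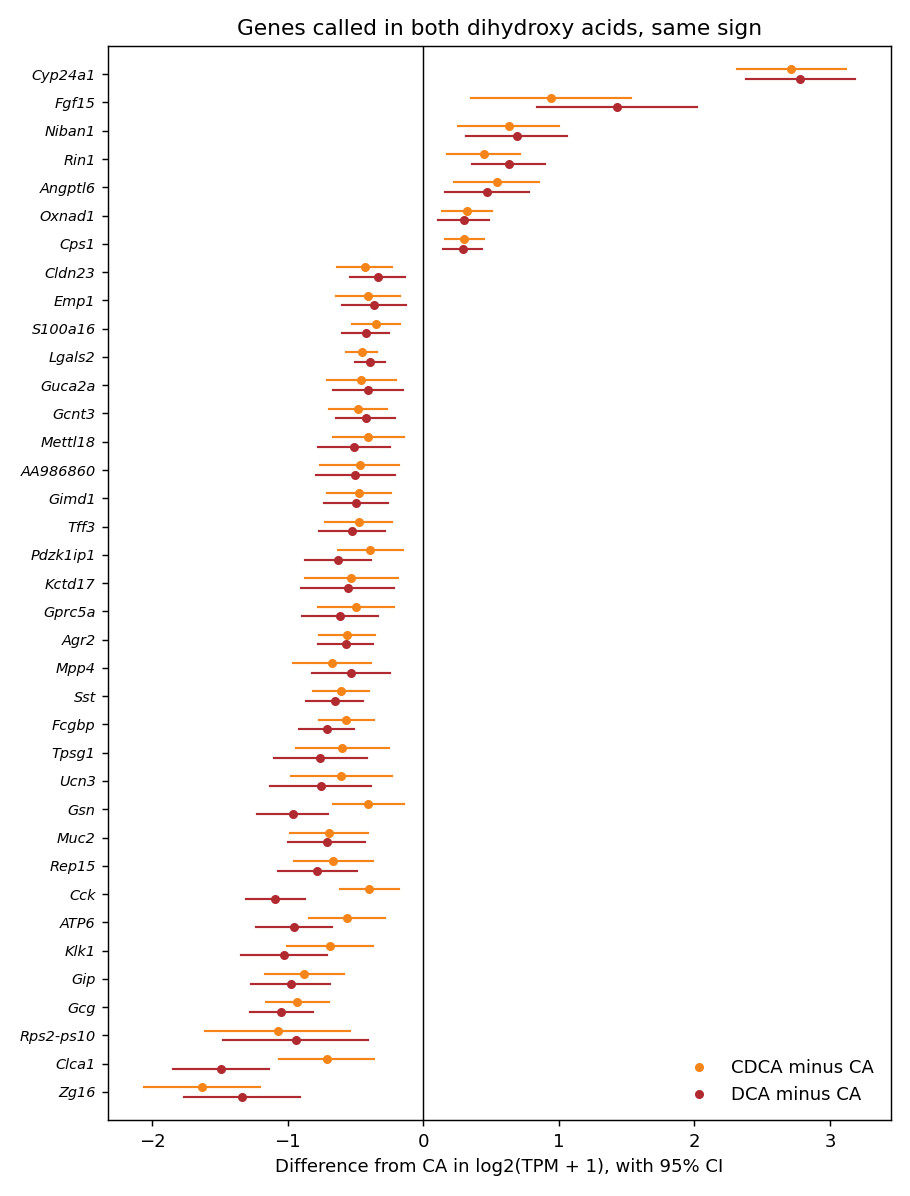
Differences from CA in log2(TPM + 1) with 95% intervals for the 37 shared genes, CDCA in orange and DCA in red, ordered by their average. Intervals of both acids overlap for most genes, while for Cck, Clca1 and Gsn the DCA interval lies further from 0.

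Of the 37 genes, 3 were called between DCA and CDCA, against 22.4% of all genes tested. The 37 were chosen for the same sign against the same CA libraries, which favours agreement between the acids. The other 34 were not called, and in 27 of them the 95% interval of that difference lay within 0.5 on either side of 0. The share of all genes with such an interval was not counted. For the other 7 of the 34, larger differences between the dihydroxy acids are within the interval, as for Fgf15 (DCA minus CDCA 0.48, -0.11 to 1.07), Zg16 (0.29, -0.13 to 0.72) and ATP6 (-0.39, -0.67 to -0.11, adjusted p = 0.0669). The 3 called genes, Cck, Clca1 and Gsn, were all lower in DCA than in CDCA.

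Against the solvent, the 7 higher genes were raised in both dihydroxy acids. CA was called higher than DMSO in 5 of them (3.41% of all genes tested), and CDCA (1.92%) and DCA (14.9%) in all 7, with medians of 0.50, 1.24 and 1.42. These comparisons share the DMSO libraries. The 30 lower genes were placed differently. In 20 of them the DMSO mean lay between CA above and both dihydroxy acids below, in 8 it lay above all 3 acids, in 1 below all (Kctd17) and in 1 between CDCA and DCA (Cldn23). CA was called higher than DMSO in 4 of the 30 (Zg16, Kctd17, Mpp4 and Cldn23) and lower in 0 (0.368% of all genes), CDCA was called lower in 17 (0.569% of all genes) and DCA in 18 (14.6%), with medians of 0.14, -0.42 and -0.53. For goblet markers the medians against DMSO were 0.24 in CA, -0.29 in CDCA and -0.37 in DCA, and for enteroendocrine markers -0.02, -0.24 and -0.44. Gcg, Gip, Sst, Cck, Fcgbp, Agr2 and Lgals2 were thus called lower than the solvent in both dihydroxy acids and were not called in CA, whereas Muc2, Tff3 and Guca2a were called against the solvent in none of the 3 acids.

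**Figure D5:**
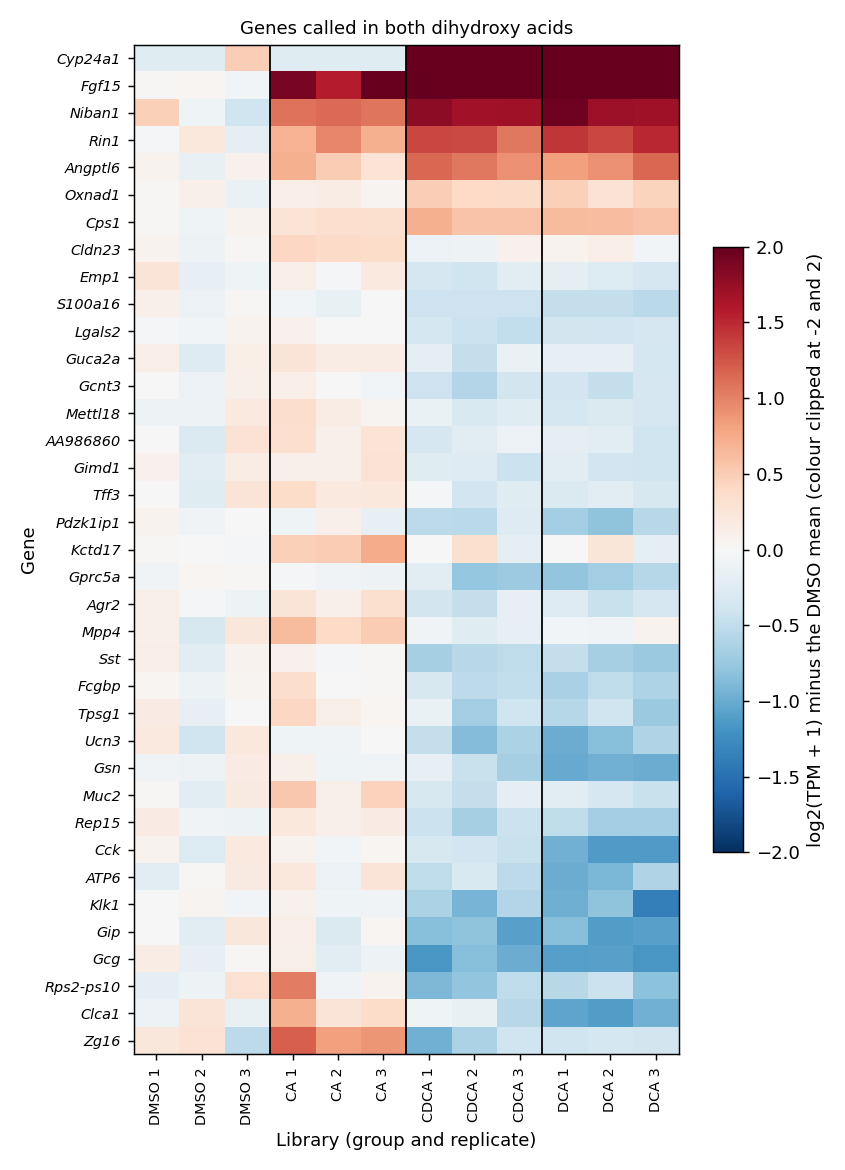
Level of the 37 shared genes in each of the 12 libraries as log2(TPM + 1) minus the mean of the 3 DMSO libraries, red above and blue below it, with colours clipped at -2 and 2. The 7 upper rows are redder in CDCA and DCA than in CA, where the Cyp24a1 row is pale blue. In the 30 lower rows the CA columns are pale or light red while the 6 CDCA and DCA columns are mostly blue.

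A call in the average did not by itself mean that the acids agreed. Of the 21 genes called there, 15 are among the 37 and 6 are not. H2-Q10, an MHC class I gene with close copies among which reads can be split, stood at 137, 133 and 126 TPM in CA, 137, 129 and 125 TPM in CDCA and 244, 249 and 236 TPM in DCA, so that DCA alone (0.87) made the average of 0.43. Scd1, the fatty acid desaturase, was 0.34 above CA in CDCA (adjusted p = 0.0962) and 1.57 in DCA, and Pyy, a hormone of distal gut L cells, 0.64 (adjusted p = 0.0624) and 1.37. Pyy was low, at 0.777 to 1.06 TPM in CA, 1.36 to 2.94 in CDCA, 3.34 to 4.43 in DCA and 1.55 to 3.00 in DMSO. For Pyy, CA was called lower than DMSO (-0.72, adjusted p = 0.0373), while CDCA (-0.085) and DCA (0.65) were not called against DMSO. The average call of Pyy was kept in 11 of 21 alternatives. Gast, the hormone gastrin, stood at 5.79 to 8.60 TPM in CA, 2.76 to 6.26 TPM in CDCA and 0 to 0.569 TPM in DCA, at -0.75 (adjusted p = 0.0823) and -2.73. Adamts15, a secreted protease, and Kif23, a mitotic motor, were -0.91 and -0.86 in DCA and not called in CDCA. For all 6, DCA minus CDCA was itself called.

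The lists of other epithelial cells had no shared calls. Over all genes tested, 8.42% were called lower and 5.33% higher in DCA, and 0.979% lower and 0.259% higher in CDCA. Of 19 stem cell markers none was called in the average, 8 were lower in DCA and 1 higher in CDCA (Aqp4), with medians of -0.73 and 0.32. The stem cell genes Lgr5 and Olfm4 were -0.69 and -2.65 from CA in DCA (adjusted p = 0.0444 and 0.0108) and 0.32 and 0.71 in CDCA, not called. Of 25 proliferation genes 24 were lower in DCA and 0 changed in CDCA, Mki67 with -0.60 and 0.15. Of 25 enterocyte markers 3 were lower in CDCA and 5 higher in DCA. Alpi, the brush border alkaline phosphatase, was -1.09 in CDCA (adjusted p = 0.0304) and 0.77 in DCA (adjusted p = 0.111). CDCA replicate 3 stood apart on these lists. Summed enterocyte markers were 3600, 3485 and 5493 TPM in CDCA replicates 1, 2 and 3, against 5090 to 7694 TPM in CA, and summed stem cell markers were 1266, 1104 and 680 TPM, against 723 to 919 TPM in CA. Without that library 22 enterocyte markers were lower in CDCA and 12 higher in DCA, and 5 stem cell markers were higher in CDCA and 12 lower in DCA. With DMSO replicate 1 left out as well, 14 stem cell markers and 11 proliferation genes were higher in CDCA. Paneth cell (15 tested) and tuft cell markers (10 tested) had no call in the average and none in CDCA; DCA had 2 Paneth calls, both lower, and 1 tuft call, higher. Fetal-like and YAP response genes (12 tested) had a median of -0.48, near that of the goblet list, but 7 were called lower in DCA, 1 in CDCA and 0 in both.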

How the data were processed

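RNA was measured in 12 organoid libraries, 3 each for CA, CDCA, DCA and DMSO, grouped by their labels. Per the labels' protocols, poly(A) RNA was selected and strand-marked libraries were sequenced from both ends. The authors deposited a table per library with 1 TPM value for each gene symbol; the unit was read from the values, which are not whole and sum to nearly the same total. Salmon 1.8.0 and build GRCm39 are named per the submitters' processing notes; the annotation and strand setting were not found in the labels, and depth per library is unknown.

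Values were taken as log2(TPM + 1) and filtered at 1 TPM in 3 libraries. Group means of all 12 libraries (4 groups) were modelled in limma 3.58.1 (R 4.3.3), with trend and robust moderation, two-sided. Benjamini-Hochberg adjustment ran over all genes of the average contrast, over the 3 pairs of acids together and over the 3 comparisons with DMSO together, at 0.05; intervals are 95% and unadjusted. The script was tested on simulated data for 11952 genes. With 1 log2 unit of change the average contrast called 98% and the rule of both acids 97%. With 0.5 units they called 69% and 35%, and of unchanged genes 0.0511% and 0%. Changed genes were drawn only from those above a set mean level, so the shares of changed genes called do not cover low genes such as Rep15 and Kctd17. The simulation changed CDCA and DCA alike and held no genes changed in DCA alone. Its share of unchanged genes called therefore does not cover the eased threshold for CDCA in the real data.

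The comparison, the 31 gene lists (508 genes, 3 not found) and the tests were chosen with earlier results of these data known. Named genes were up to 15 per direction of the shared calls and 10 per direction of the average calls by size, without overlap of groups and with a mean of at least 1 on the log2 scale, up to 4 members per list by smallest p, and 14 genes fixed by name; other shared or average calls, list members and the genes with opposite signs were named after their values were seen. Pseudogene symbols were left out of the size rule. Alternatives covered the filter, pseudocount, scaling, mitochondrial and rRNA rows, replicate block, libraries fitted, moderation, adjustment and each library left out. Counts of list members and of genes with opposite signs without CDCA replicate 3, alone or with DMSO replicate 1, were added after seeing the data. Upstream sequences come from RefSeq on GRCm38.p6, not the files' build, and 24 of the 37 shared genes matched by symbol.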

Additional observations from a re-analysis of the deposited data

Results flagged for a closer look

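In 3 of the 37 shared genes the dihydroxy acids also differed from each other, each lower in DCA than in CDCA on the log2(TPM + 1) scale: Clca1 by -0.78 (95% interval -1.13 to -0.43, adjusted p = 0.00901), Cck by -0.69 (-0.91 to -0.47, adjusted p = 0.00209) and Gsn by -0.56 (-0.82 to -0.29, adjusted p = 0.0112, limma). In all 3 the CDCA libraries lay between CA and DCA.

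Gprc5a had a library apart from the others. Among the 6 dihydroxy libraries, CDCA replicate 1 (11.7 TPM) was the highest, and its gap to the next made up 0.627 of the whole range on the log2 scale, past the value of Dixon's table for 6 samples. Of 40 values examined this was the 1 found, and chance gives about 1 in 20.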

How the results depend on the processing

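The 37 shared genes kept their direction in both pairs under every alternative run in which they were tested (the ATP6 row is absent where mitochondrial rows were removed). For the fits that left out a library this follows from the lack of overlap with CA. Cyp24a1, Gcg and Lgals2, 3 of the 37, kept both calls under all 22 alternatives. The count of 37 was 54 with median-ratio scaling, 4 with each pair adjusted by itself, 3 with the larger of both p-values, 56 without CDCA replicate 3 and DMSO replicate 1 (an alternative chosen after seeing the data), and 17 to 49 with each library left out. The 21 calls of the average were 47 with median-ratio scaling, 38 without mitochondrial and rRNA rows, 48 in a fit of the 9 acid libraries, 8 with CDCA and DCA as 1 group, 52 without CDCA replicate 3 and DMSO replicate 1, and 8 to 43 with each library left out. In the same order of settings where they apply, the 148 calls of CDCA were 227, 226, 255 and, without the 2 libraries, 1006, and they were 91 with no filter on low values and 4 with each pair adjusted by itself. With each library left out they were 43 to 618, the highest without CDCA replicate 3, and 51, 57, 71, 43, 61, 55 and 85 without CA replicates 1 and 3, CDCA replicates 1 and 2 and DCA replicates 1, 2 and 3. The 1643 calls of DCA were 2762 without the 2 libraries and 605 to 2173 with each left out (817 and 972 without CA replicates 2 and 3, 652, 605 and 998 without DCA replicates 1, 2 and 3). The 2673 between DCA and CDCA were 3937 without the 2 libraries and 1291 to 3388 with each left out (1529 and 1420 without CDCA replicates 1 and 2, 1389 and 1291 without DCA replicates 1 and 2). The cause of these shifts was not tested.

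Same-numbered libraries showed no sign of deviating together: 18 correlations ran from -0.378 to 0.109, 3 were over 0.1, and 7 of 36 were best with their own number. With 3 libraries a group this cannot exclude that the replicate numbers pair the libraries. With a replicate block there were 21 average calls and 30 shared genes, 29 of them among the 37.

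The mitochondrial share difference, -0.10, ran from -0.95 to 0.44 with a library left out and turned positive without CA replicate 1 (0.108) and DCA replicates 1 (0.437), 2 (0.359) and 3 (0.124). Average differences that changed sign near 0, none of them called, were those of Slc51a (-0.013 to 0.482 with libraries left out, -0.013 without CDCA replicate 3), Nr0b2 (-0.148 to 0.26, -0.148 without CA replicate 2 and -0.01 without CDCA replicate 3), Nr1h4 (-0.108 to 0.119, -0.103 without CA replicate 2, -0.108 without CDCA replicate 3 and -0.002 without DCA replicate 2) and Alpi (-0.368 to 0.092, 0.092 without CA replicate 1). Of 1217 values of 58 genes under alternatives, 1088 kept direction and side of the threshold, 61 lost and 58 gained a call. TPM hides depth, so how far low genes such as Rep15 and Kctd17 are limited by it is unknown.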

Other observations

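In 23 genes CDCA and DCA were both called against CA with opposite signs, and these were named after their values were seen. In 21 of them CDCA was lower and DCA higher than CA. In 14 of the 21 CDCA replicate 3 was the highest CDCA library, and in 12 it lay closer to the CA mean than to the mean of its partners, as for Cyp2d22, a cytochrome gene (2.92, 3.21 and 8.14 TPM in CDCA and at least 8.19 TPM in CA). Without that library 271 genes were called with opposite signs, 21 of the 23 among them. Of 27 tested xenobiotic metabolism genes, a list fixed with earlier results known, 2 were called lower in CDCA (0.979% of all genes) and 9 higher in DCA (5.33%), and without CDCA replicate 3 these were 19 and 17. Gstm1 stood at 730, 571 and 629 TPM in CA, 487, 437 and 484 TPM in CDCA and 1309, 1334 and 1145 TPM in DCA, with DMSO at 445, 333 and 365 TPM. CA thus lay between the dihydroxy acids without overlap, at -0.45 for CDCA and 0.98 for DCA (adjusted p = 0.0205 and 0.000869), and DMSO lay near CDCA. Several of these genes belong to families with close copies, among which reads can be split.

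Sterol genes were Insig1, the sterol-regulated retention factor (-0.37 and 0.84), and the cholesterol synthesis enzymes Msmo1 (-0.39 and 0.53) and Dhcr7 (-0.32 and 0.42). Of 24 listed cholesterol genes these were the 3 called lower in CDCA (0.979% of all genes), while 13 were called higher in DCA (5.33%). The remaining genes of this kind were AA467197, Cbr3, Cda, Cyp2s1, Cyp4f14, Cyp4f16, Gamt, Gdpd2, Ksr1, Lgals4, Mgst2, Nat8, Slc7a9, Tmem184a, Tmem253 and Tmie. Igfbp2, an insulin-like growth factor binding protein, and Mreg, a regulator of organelle transport, went the other way, 0.49 and 0.59 above CA in CDCA and -0.38 and -0.59 in DCA. For these 23 genes the average over both acids says little, since values of -0.65 and 0.68 for AA467197 average to 0.01.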
